A study of Mus musculus with 6 samples.

Results

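The genes described here make, carry, bind and break down retinoic acid. They were taken from the deposited gene table by name: Rbp4, Rdh10, Dhrs3, Aldh1a1, Aldh1a2, Aldh1a3, Crabp1, Crabp2 and Cyp26b1, which are 9 of its 26852 genes. All 9 genes were found in the table. RNA had been sequenced from dissected E14.5 midbrains of mice on a C57Bl/6 background (C57BL/6J in the paper), with 3 cKO libraries and 3 control libraries. The cKO embryos were Lmx1b fl/fl with Pitx3-Cre, and the control embryos were Lmx1b wt/wt with Pitx3-Cre. Both groups thus carried the Cre allele, which also disrupts the copy of Pitx3 it was inserted in. Each library pooled 2 embryos, and the embryos came from 4 litters. Within the midbrain, Pitx3 and so Cre are expressed by mesodiencephalic dopaminergic (mdDA) neurons, whereas RNA was taken from the whole dissected midbrain.

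Retinoic acid is a small lipophilic signal made from vitamin A. Retinol reaches cells on a plasma carrier, is oxidized to retinaldehyde, and is then oxidized irreversibly to retinoic acid by retinaldehyde dehydrogenases. Retinoic acid binds nuclear receptors that act on target genes, cytoplasmic binding proteins hold it in the cell, and cytochromes of the Cyp26 family clear it. In the midbrain, Aldh1a1, which the study calls Ahd2, is known as a marker of a subset of mdDA neurons, and Aldh1a2 is known from the meninges around the embryonic brain.

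The values are normalized counts, meaning reads on a gene divided by the size factor of the library. The table gives them as a mean per group, and the whole read counts of the 3 libraries behind each mean were recovered by a search over whole numbers for 26355 genes (98.1%), all 9 retinoid genes among them. Between 20629683 and 25051860 reads per library lay on the recovered genes. A recovered library carries its genotype but no sample number, so letters are used, and within each genotype replicate a has the largest size factor and replicate c the smallest. Lmx1b itself had 1257, 1401 and 1455 normalized counts in the cKO libraries, against 1368, 1352 and 1474 in the control libraries. The groups overlapped, so the total on Lmx1b does not check the labels, and every direction given here is that of the libraries labelled cKO against those labelled control. The p-values measure the spread between these pooled samples, and with 3 libraries against 3 an exact permutation test, two-sided, cannot go below 0.1.

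Promoter windows from RefSeq on GRCm38.p6, running from 250 bases before to 50 bases after a transcript start, were held for 6 of the 9 genes. The parts of these windows that lie before any exon in the window are shown for Aldh1a1 and Rbp4, the retinoid genes whose groups did not overlap, and for Cyp26b1, which of the 9 genes varied most within the control group. They are written 5′ to 3′ on the strand of the gene, and capitals mark TGACCC, which is the nuclear receptor motif GGGTCA read on the opposite strand. Aldh1a1 has windows at separate transcript starts. Its window 1 stretch, chr19:20492333-20492582 on the plus strand, lies before the whole gene, and its window 2 stretch, chr19:20601718-20601960 on the plus strand, lies inside the gene, after the first exons of its longer transcripts. The Cyp26b1 stretch is chr6:84593909-84594060 on the minus strand, and the Rbp4 stretch is chr19:38125322-38125571 on the minus strand.
Aldh1a1 window 1: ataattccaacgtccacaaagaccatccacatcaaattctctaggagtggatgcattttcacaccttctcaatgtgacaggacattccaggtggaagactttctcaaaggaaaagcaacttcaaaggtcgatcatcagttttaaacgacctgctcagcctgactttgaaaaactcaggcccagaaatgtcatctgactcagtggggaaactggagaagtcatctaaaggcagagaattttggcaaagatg
Aldh1a1 window 2: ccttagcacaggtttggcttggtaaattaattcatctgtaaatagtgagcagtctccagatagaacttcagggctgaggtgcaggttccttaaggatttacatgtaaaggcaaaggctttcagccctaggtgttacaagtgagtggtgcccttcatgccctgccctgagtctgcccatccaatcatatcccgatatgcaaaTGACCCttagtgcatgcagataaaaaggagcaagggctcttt
Cyp26b1: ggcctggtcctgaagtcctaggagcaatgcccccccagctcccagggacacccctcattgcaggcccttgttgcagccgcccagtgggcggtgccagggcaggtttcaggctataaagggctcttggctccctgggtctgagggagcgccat
Rbp4: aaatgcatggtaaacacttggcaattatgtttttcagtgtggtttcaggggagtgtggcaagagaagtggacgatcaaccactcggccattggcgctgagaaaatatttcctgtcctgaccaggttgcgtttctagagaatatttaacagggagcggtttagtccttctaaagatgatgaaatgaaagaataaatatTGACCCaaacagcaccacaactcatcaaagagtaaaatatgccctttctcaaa
The searched letters were TAATTA, a homeodomain core, the nuclear receptor motifs AGGTCA and GGGTCA, and direct repeats of AGGTCA with 2 (DR2) or 5 (DR5) bases between them, all on both strands. GGGTCA lay in window 2 of Aldh1a1 and not in window 1, starting 49 bases before the transcript start (position -49), and in a single window of Rbp4, at position -53. These letters lay in 13.7% of all 32851 windows of the same length. The other letters lay in none of the 10 windows held for the 6 genes. Of all windows, 5.29% held TAATTA, 16.3% held AGGTCA, and DR2 and DR5 were each held by 0.00913%. A match describes the letters only, and these windows were not tested for binding of any factor.

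The 9 genes fell into abundant and scarce ones. Exon length here counts each base in any annotated exon of a gene once, which for Aldh1a1 gives 4937 bases in 21 blocks. The order below depends on that length, and lengths of single transcripts were not used. Per exon length, the control libraries held most reads on Cyp26b1, which inactivates retinoic acid, at 315.6 ± 224 normalized reads per kb of exon (SD, n = 3). This place rested on control replicate a, without which the mean of Cyp26b1 was 186.5 and that of Crabp2 259.4 normalized reads per kb. Crabp2 followed at 241.5 ± 69.2, Crabp1 at 144.8 ± 8.76, Dhrs3 at 115.6 ± 25.9, Rdh10 at 111.6 ± 12.8 and Aldh1a1 at 89.8 ± 22.0 normalized reads per kb. Rbp4, Aldh1a2 and Aldh1a3 were far lower, at 7.47 ± 3.69, 2.47 ± 0.756 and 1.78 ± 0.787 normalized reads per kb. In the control group, neighbours in this order overlapped between libraries except for Crabp2 above Crabp1 and Aldh1a1 above Rbp4. In the cKO group the order was Crabp2 (284), Crabp1 (167.2), Cyp26b1 (167.0), Aldh1a1 (166.7), Rdh10 (117.5), Dhrs3 (89.1), Aldh1a3 (2.89), Aldh1a2 (2.72) and Rbp4 (0.763 normalized reads per kb). Crabp1, Cyp26b1 and Aldh1a1 could not be ordered among the cKO libraries, since each overlapped its neighbour. Aldh1a1 lay above Rdh10 in every cKO library, whereas in the control group these genes overlapped.

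**Figure D1:**
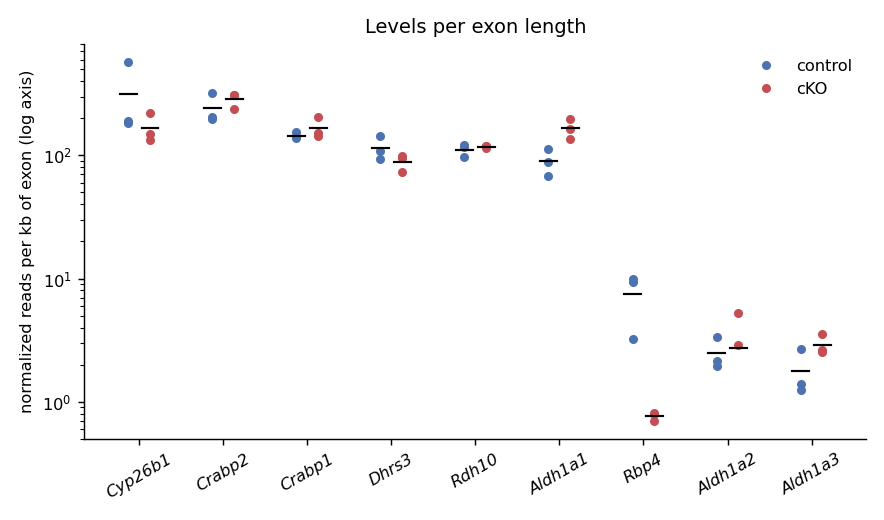
Level of the 9 retinoid genes in normalized reads per kb of exon on a log axis, with a point for each control (blue) and cKO (red) library and a line at the group mean. Rbp4, Aldh1a2 and Aldh1a3 lie far below the other 6 genes. The value of 0 for Aldh1a2 in cKO replicate b cannot be drawn on a log axis and is left out.

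Rbp4 encodes the plasma carrier of retinol (ENSMUSG00000024990, chromosome 19, 38116629 to 38125281, minus strand of GRCm38). Its 7 exon blocks held 1 read in each cKO library, and 15, 13 and 4 reads in control replicates a, b and c. In normalized counts these are 0.937, 1.06 and 1.08 against 13.3, 12.5 and 4.32. Every control library lay above every cKO library (p = 0.1 in the exact two-sided permutation test). Over all recovered genes, 6.83% had groups that did not overlap. The ratio of the group totals, control over cKO, was 10.1-fold, with a 95% counting interval from 3.17 to 51.6 that covers counting error only. With 3 or fewer reads in each library, the cKO group was at the floor, so the size of this fold is only loosely set. The gene had a mean under 10 and was not in the main test. Without a filter on low values, limma put Rbp4 at a log2 fold change of -2.67, with standard error 0.69 and adjusted p = 0.978 (0.00167 before adjustment). The summed markers of the choroid plexus, a tissue rich in retinol transport, were at 263 to 438 in the cKO and at 293 to 337 in the control libraries. Prlr, Kl and Folr1 held much of this sum, Kcnj13 was at 0.937 in cKO replicate a and 0 elsewhere, and the part of this tissue in the Rbp4 difference was not tested. Of that list, Ttr, the partner of Rbp4 in plasma, was listed at 0 in 5 libraries and at 6.34 in cKO replicate b. In bulk RNA, fewer cells that use a gene and less RNA per cell cannot be told apart, which holds for every gene below.

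Rdh10 and Dhrs3 work in opposite directions on the same step. Rdh10 (ENSMUSG00000025921, chromosome 1, 16105774 to 16133734, plus strand) oxidizes retinol to retinaldehyde. It had 478.8, 495.6 and 492.5 normalized counts in cKO replicates a, b and c against 484.0, 504.3 and 403.9 in control replicates a, b and c. The cKO libraries lay within the control range, and the log2 fold change was 0.073 (standard error 0.11, 95% interval -0.16 to 0.31). On a linear scale this interval runs from 0.892-fold to 1.24-fold.

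Dhrs3 reduces retinaldehyde back to retinol (ENSMUSG00000066026, chromosome 4, 144892827 to 144928209, plus strand). It had 214.5, 281.1 and 286.8 normalized counts in the cKO libraries, against 422.0, 318.9 and 274.3 in the control libraries. The lowest control library, c, lay under the cKO libraries b and c, so the groups overlapped (exact permutation test, two-sided, p = 0.3). The group means were 261 ± 40.2 and 338 ± 75.8 (SD, n = 3), and limma gave a log2 fold change of -0.39 (standard error 0.18, unadjusted p = 0.0491, adjusted p = 1.00). Without control replicate a the log2 fold change was -0.21 and the unadjusted p 0.233, and without cKO replicate a they were -0.25 and 0.209.

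The ratio of Rdh10 to Dhrs3 was formed per exon length in each library. It was 1.57, 1.24 and 1.21 in the cKO libraries against 0.807, 1.11 and 1.04 in the control libraries. Every cKO library lay above every control library, and the means of 1.34 ± 0.200 and 0.985 ± 0.159 (SD, n = 3) differed by 1.36-fold. The ratio was formed after the values of both genes were known and was not tested.

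The retinaldehyde dehydrogenases make the active acid. Aldh1a1 (ENSMUSG00000053279, chromosome 19, 20492715 to 20643465, plus strand) had 980.9, 672.0 and 816.1 normalized counts in cKO replicates a, b and c. The control replicates a, b and c had 337.1, 554.3 and 438.5. Every cKO library lay above every control library, and the lowest cKO library was 1.21-fold above the highest control library (p = 0.1 in the exact two-sided permutation test). The means of 823 ± 155 and 443 ± 109 (SD, n = 3) stood at a ratio of 1.86. In limma the log2 fold change was 0.92 (standard error 0.18, 95% interval 0.54 to 1.31). The unadjusted p of 0.000231 was the smallest of the 16680 genes tested, and the adjusted p was 1.00. With each library left out in turn the log2 fold change ran from 0.72 to 1.11, and the unadjusted p stayed at or under 0.00128.

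**Figure D2:**
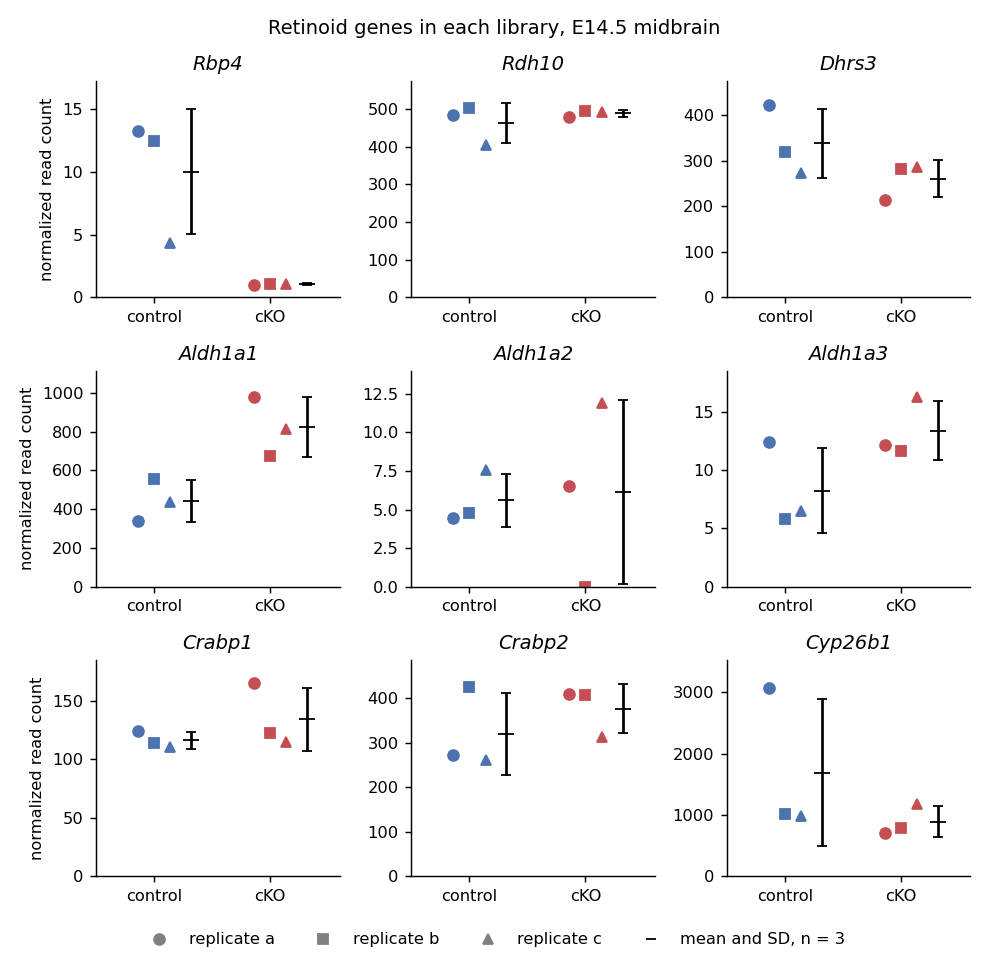
Normalized read counts of the 9 retinoid genes in each library, with control in blue and cKO in red, replicates a, b and c as circles, squares and triangles, and the mean with SD (n = 3) beside them. Each panel has its own axis from 0. The groups do not overlap for Rbp4 and Aldh1a1, and control replicate a stands apart for Cyp26b1 at 3072.

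Aldh1a2 and Aldh1a3 were close to the detection floor. Aldh1a2 (ENSMUSG00000013584, chromosome 9, 71215789 to 71296243, plus strand) had 7, 0 and 11 reads in the cKO libraries and 5, 5 and 7 reads in the control libraries. The groups overlapped, the ratio of the group totals was 1.12 with a 95% counting interval from 0.543 to 2.31, and the mean was under the filter. Without the filter limma gave a log2 fold change of -0.71 (unadjusted p = 0.478), opposite in sign to the ratio. Aldh1a3 (ENSMUSG00000015134, chromosome 7, 66390890 to 66427517, minus strand) had 13, 11 and 15 reads in the cKO libraries, against 14, 6 and 6 in the control libraries. Control replicate a lay among the cKO libraries, and the log2 fold change of 0.71 had a standard error of 0.51 (unadjusted p = 0.192). At this depth no difference was detectable for either gene.

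Aldh1a1 therefore held nearly all reads on the Aldh1a genes described here. Per exon length it made up 97.3%, 98.2% and 94.96% of the summed level of Aldh1a1, Aldh1a2 and Aldh1a3 in the cKO libraries, compared with 93.6%, 97.1% and 94.9% in the control libraries. The groups overlapped in this share, at 96.8 ± 1.67% and 95.2 ± 1.74% (SD, n = 3). Aldh1a7, a near copy of Aldh1a1 that lies 49.5 kb from it on the other strand (chromosome 19, 20692953 to 20727562), had 2, 3 and 1 reads in the cKO and 1, 12 and 2 reads in the control libraries. Reads shared by the copies could have been split or dropped in counting, and lines for reads without a unique alignment held 17.5% of all mean counts in the table.

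Marker lists show what else the libraries held beside Aldh1a1. The summed mdDA neuron markers (14 of 14 genes found) were at 14866 to 15914 normalized counts in the cKO and 16418 to 18732 in the control libraries, without overlap and in the opposite direction to Aldh1a1. Of the 14 genes, 12 had a log2 fold change below 0, 4 of them with an unadjusted p under 0.05 (En1, En2, Ddc and Pitx3), and the groups did not overlap for 7. Of all 16680 genes tested, 8341 lay below 0, 2.79% had an unadjusted p under 0.05 and 7.67% did not overlap. Pitx3 was at 111.5 to 161.7 against 177.0 to 197.7, and Ddc, which makes dopamine from its precursor, at 1552 to 1608 against 1699 to 2274. Summed without En1 and En2, which differed most in p, the other 12 genes were at 12513 to 12878 in the cKO and 12742 to 14752 in the control libraries and overlapped. The 2 genes above 0 were Drd2 (220.8 to 233.5 against 179.3 to 197.9) and Slc18a2 (log2 fold change 0.13). Relative to Th, the enzyme that sets the rate of dopamine synthesis, Aldh1a1 stood at 1.32, 0.916 and 1.05 in the cKO libraries against 0.434, 0.702 and 0.449 in the control libraries. These ratios did not overlap, but neither did Aldh1a1 alone, so they are no separate support. The ratio was not among the planned comparisons and was not tested. The midbrain marker Otx2 was present in all libraries at 1613 to 1863 normalized counts.

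Tissue around the midbrain was represented unevenly. The summed meningeal fibroblast markers (13 of 14 genes found) were at 2216, 650 and 13710 normalized counts in cKO replicates a, b and c, compared with 671, 617 and 757 in the control libraries. The sums followed the matrix genes, such as Col1a1 at 532, 14.8 and 6097 against 10.6, 11.5 and 10.8. The transcription factors of the list were uneven, with Foxc1 at 137.7, 104.6 and 144.0 against 113.3, 89.3 and 127.4, Foxd1 at 70.4 to 94.0 against 68.0 to 70.1 and Tbx18 at a log2 fold change of -0.20. Twist1 was at 18.7, 7.396 and 43.3 against 11.5, 3.84 and 9.72, and Foxc2 at 1.87, 5.28 and 29.2 against at most 4.80. Of the 7 bone genes found, 3 stood far apart in cKO replicate c, with Ibsp at 163.4 against at most 1.08 in the other libraries, Sp7 at 40.1 against at most 2.88 and Runx2 at 84.4 against 9.61 to 28.3. Phex (60.6 against 27.2 to 42.5) and Alpl (194.8 against 107.7 to 162.8) were also highest there. Bglap (3.25) and Dmp1 (14.1) lay there within the range of the other libraries. Col1a1 is also made by bone, so the summed list does not single out meninges. Among the cKO libraries, replicate b was lowest in both the meningeal sum and Aldh1a1, while replicate c had the highest meningeal sum and replicate a the highest Aldh1a1. Over the 6 libraries, Aldh1a1 and the meningeal level, the mean log2 value of the list, had a Pearson r of 0.64. With the meningeal level as a covariate, limma gave a log2 fold change of 0.84 for Aldh1a1 (unadjusted p = 0.00496). The standard error was 0.24, against 0.18 without the covariate. The meningeal level was 5.57, 4.28 and 6.99 in the cKO libraries against 4.41, 3.93 and 4.16 in the control libraries. It thus leaned with genotype, and this fit does not fully tell them apart. The summed forebrain markers (8 of 8) were also without overlap, at 6140 to 7863 in the cKO and 5490 to 6004 in the control libraries. The part of the forebrain and mdDA levels in the Aldh1a1 difference was not tested. The sum of the 6 serotonergic markers was lower in the cKO libraries (523 to 823 against 857 to 1124), with an unadjusted p under 0.05 for 4 of the genes and no overlap for 2. Tph2, Fev, Htr1a and Gch1 overlapped. Of all genes tested, 2.79% had an unadjusted p under 0.05 and 7.67% did not overlap. Midbrain markers overlapped (8514 to 9973 against 9825 to 10815). Sums for blood (13467 to 17432 against 12054 to 16521), endothelium (6362 to 6591 against 6037 to 6693), bone (167 to 561 against 201 to 250, highest in cKO replicate c), radial glia (6 of 8 genes recovered, 15319 to 17793 against 17062 to 18151) and neurons (3 of 8 recovered, 14594 to 15676 against 14427 to 15231) overlapped as well. Hindbrain Hox genes summed to at most 6.56 in any library.

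The cytoplasmic binding proteins of retinoic acid were abundant in both groups. Crabp1 (ENSMUSG00000032291, chromosome 9, 54764748 to 54773110, plus strand), which binds retinoic acid in the cytoplasm, had 164.9, 122.6 and 114.7 normalized counts in the cKO libraries. The control libraries had 123.9, 114.3 and 110.2. The highest library was cKO replicate a, the other libraries interleaved, and the log2 fold change was 0.20 (standard error 0.20, 95% interval -0.23 to 0.63). Without cKO replicate a it was 0.028. Crabp2 (ENSMUSG00000004885, chromosome 3, 87948666 to 87953376, plus strand), which carries retinoic acid to its nuclear receptors, had 408.5, 406.8 and 312.8 normalized counts in the cKO libraries. The control libraries had 271.6, 424.6 and 261.4, of which b was the highest of all 6. Its log2 fold change was 0.26 (standard error 0.18, 95% interval -0.13 to 0.66). It was 0.49 (unadjusted p = 0.0116) without control replicate b, and 0.50 (unadjusted p = 0.0493) with the meningeal level as a covariate. Without control replicate a it was 0.15.

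Cyp26b1 clears retinoic acid by oxidation (ENSMUSG00000063415, chromosome 6, 84571414 to 84593908, minus strand). It had 710.2, 793.5 and 1178 normalized counts in cKO replicates a, b and c. The control replicates a, b and c had 3072, 1016 and 979.6. Control replicate a stood 3.08-fold above the mean of the other control libraries, whereas control replicates b and c lay below cKO replicate c. The means of 894 ± 249 and 1689 ± 1198 (SD, n = 3) therefore came with a wide control spread, and the log2 fold change of -0.78 (standard error 0.39, 95% interval -1.63 to 0.060) had an unadjusted p of 0.0656 and an adjusted p of 1.00. Without control replicate a the log2 fold change was -0.21 (unadjusted p = 0.229). It was -1.06 (unadjusted p = 0.0208) without control replicate b and -1.05 (unadjusted p = 0.0243) without control replicate c. With a cKO library left out in turn it ran from -0.99 to -0.62, each with an unadjusted p above 0.05. With the meningeal level as a covariate it was -1.40 (unadjusted p = 0.0316). The other Cyp26 genes were nearly silent, with 6, 0 and 0 reads for Cyp26a1 in the cKO libraries and 0 in all control libraries, and 1 read in each group for Cyp26c1.

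Control replicate a stood at an end of the range for Cyp26b1, Dhrs3, Rbp4 and Aldh1a1, and inside the range for the other retinoid genes. The share of all genes for which it did so is not given here, so no property of the library is read from this. Control replicate a was the highest of the 6 libraries for Cyp26b1, for Dhrs3 (1.42-fold above the mean of control b and c) and for Rbp4 (1.58-fold), and the lowest for Aldh1a1 (0.679-fold). For Rbp4 it held 15 reads against 13 in control replicate b. Meis1, a retinoic acid target named here after its values were seen, was also highest there, at 1027 normalized counts against 609.0 and 518.4 in control b and c and 550.9 to 632.9 in the cKO. Other targets went the other way. Rarb (117.7) and Nr2f2 (6154) were lowest of the 6 libraries in control replicate a, and Crabp2 (271.6) was second lowest, so the targets did not move together in that library. The same library had the lowest sum of the 4 Y-linked genes, at 2476 normalized counts against 3597 to 8585 in the other 5 libraries. It also had the highest sum of 12 cycling progenitor genes, at 8370 against 4709 to 7029. With all 6 libraries and the Y-linked level as a covariate, the log2 fold change of Cyp26b1 was -1.07 with an adjusted p of 0.00896 in limma. With the cycling level as a covariate, that of Aldh1a1 was 0.88 with an adjusted p of 0.00859. In each of these fits it was the only gene of 16680 with an adjusted p under 0.05. Over the 16 alternatives run, the adjusted p of Cyp26b1 ran from 0.00896 to 1.00 and that of Aldh1a1 from 0.00859 to 1.00.

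These adjusted calls were repeated without control replicate a, in fits chosen after the data were seen. With the cycling level as a covariate, Aldh1a1 was at 0.96 (adjusted p = 0.0259). With the Y-linked level as a covariate, Cyp26b1 was at -1.68 (standard error 0.45, unadjusted p = 0.00475, adjusted p = 0.998), and Aldh1a1 at 0.19 with a standard error of 0.55 (unadjusted p = 0.732). In the 5 libraries left for that fit, Y-linked sums did not overlap between the groups, at 3597 to 4938 in the cKO and 7631 to 8585 in the control libraries, so that genotype and Y-linked level cannot be told apart there.

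**Figure D3:**
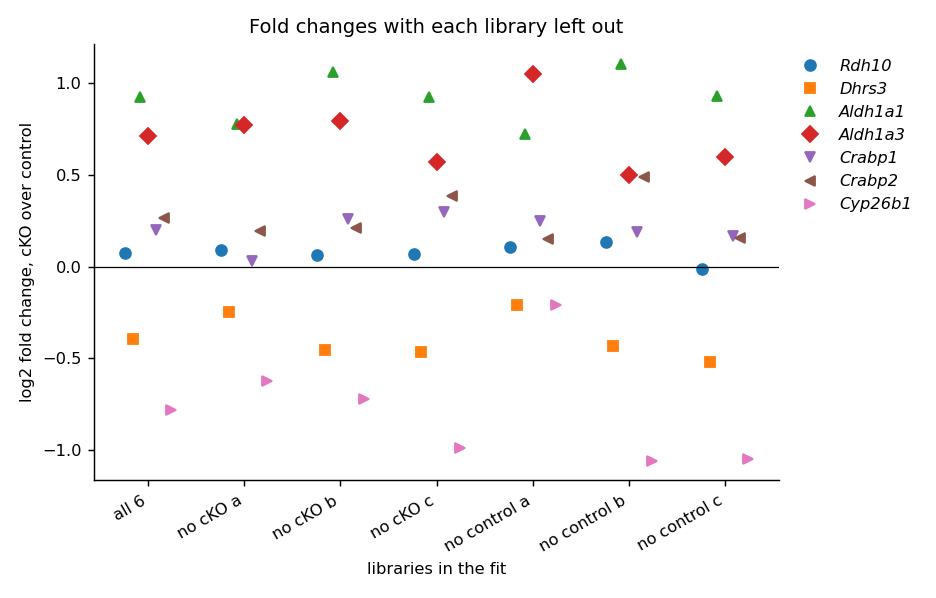
Log2 fold change of the 7 tested retinoid genes, cKO over control, in limma with all 6 libraries and with each library left out in turn. Aldh1a1 stays between 0.72 and 1.11, and Cyp26b1 moves from -0.78 to -0.21 without control replicate a.

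The ratio of Aldh1a1 to Cyp26b1, of synthesis to clearance, was also formed per exon length. It was 1.497, 0.918 and 0.751 in the cKO libraries against 0.119, 0.591 and 0.485 in the control libraries. The groups did not overlap, and even without control replicate a every cKO library lay above the control libraries. The values are ratios of RNA levels and say nothing of enzyme activity, and no test was made, since the ratio was chosen after the values were known.

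Over all genes, limma found 0 of 16680 with an adjusted p under 0.05 (0%), with voom weights and likewise with limma-trend, and 466 (2.79%) with an unadjusted p under 0.05. Of the 9 retinoid genes 7 passed the filter on low values, and 2 of these had an unadjusted p under 0.05. Aldh1a1 was higher in the cKO, where 1.18% of all genes tested were, and Dhrs3 was lower, where 1.61% were. The genes had been picked with results of these data known, so this share carries no independent weight. Groups did not overlap for 1 of the 7 genes, Aldh1a1, and for 7.67% of all genes tested. In 3.88% of all genes tested every cKO library lay above every control library, as for Aldh1a1, and in 3.79% every cKO library lay below. The log2 fold change was above 0 for 5 of the 7 genes and below 0 for 2, with a median of 0.20, while 8339 of all genes tested lay above 0 and 8341 below.

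**Figure D4:**
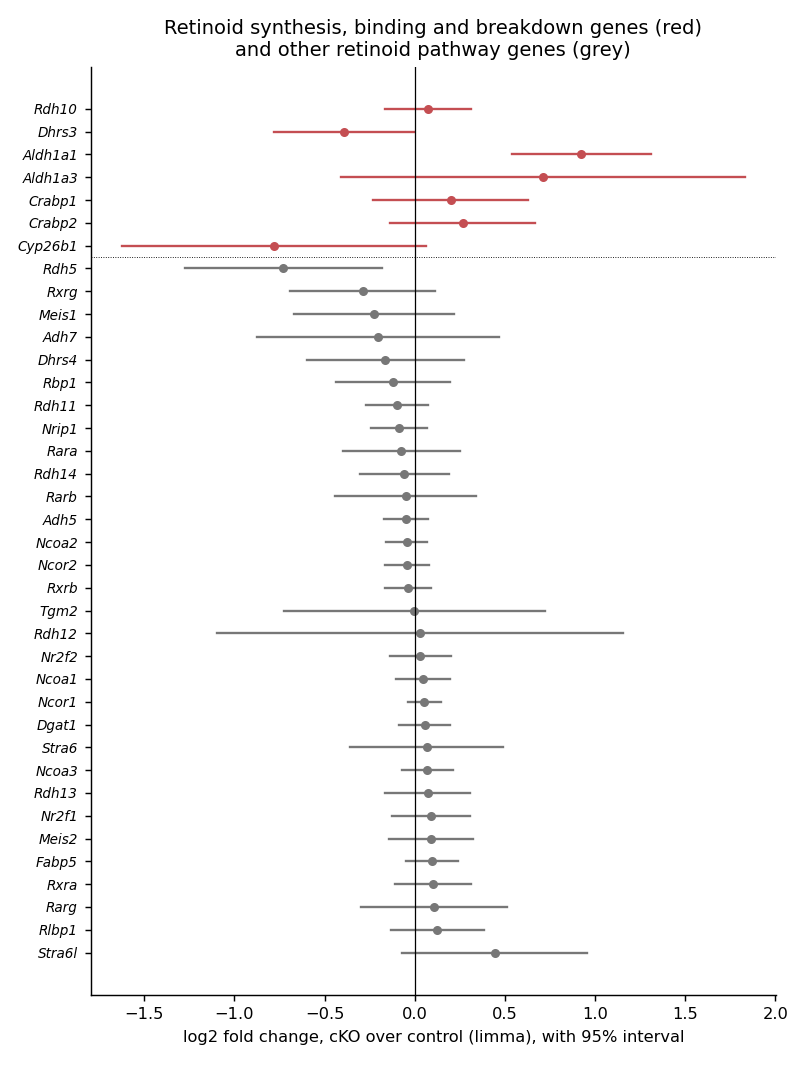
Log2 fold change with its 95% interval from limma, cKO over control, for the 7 tested retinoid synthesis, binding and breakdown genes (red) and 31 other tested genes of the pathway (grey). The intervals of Aldh1a1, Dhrs3 and Rdh5 do not cross 0.

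The rest of the pathway showed little difference. Of 56 further genes listed for retinoid uptake, storage, metabolism, receptors, coregulators and targets, 50 were in the table and 31 were tested. With an unadjusted p under 0.05 there was 1 (3.23%, against 2.79% of all genes), and 15 lay above and 16 below 0 with a median log2 fold change of -0.0017. The gene was Rdh5, an enzyme of retinol oxidation best known from the retina, with 45.9, 71.9 and 77.9 normalized counts in the cKO and 101.7, 116.2 and 95.1 in the control libraries. Every cKO library lay below every control library, and the log2 fold change was -0.73 (standard error 0.25, unadjusted p = 0.0130). Without cKO replicate a it was -0.48 (unadjusted p = 0.0786), and with the meningeal level as a covariate it was -0.77 with a wider standard error of 0.37 (unadjusted p = 0.0633). Rdh5 shares 720 exon bases with Bloc1s1 on the same strand, so reads of these genes may not have been told apart. Groups did not overlap for 2 of the 31 genes (6.45%), Rdh5 and Stra6l. Stra6l, a relative of the retinol transporter Stra6, had 80.6, 85.6 and 93.1 normalized counts in the cKO and 64.6, 74.9 and 50.8 in the control libraries (log2 fold change 0.44, unadjusted p = 0.0837).

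The receptors were measured in full. All 6 genes for retinoic acid receptors and retinoid X receptors were tested, none had an unadjusted p under 0.05, and their log2 fold changes ran from -0.29 to 0.11 with a median of -0.043. Rxrb, the most abundant, had 2224, 2315 and 2309 normalized counts in the cKO and 2208, 2382 and 2442 in the control libraries. Rarb, itself a classical target of retinoic acid, had 123.4 to 125.5 in the cKO and 117.7 to 149.9 in the control libraries, but it shares 1793 exon bases with Top2b on the opposite strand. The 6 receptor coregulators lay between -0.087 and 0.069, and their most abundant gene, Ncor1, had 8855 to 9508 normalized counts in the cKO and 8606 to 9013 in the control libraries.

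Beside Cyp26b1, Dhrs3 and Crabp2, 9 further known targets of retinoic acid were tested, none with an unadjusted p under 0.05, and their log2 fold changes ran from -0.23 to 0.091. Nr2f1, the most abundant, had 7159, 8485 and 6506 normalized counts in the cKO and 6473, 8023 and 6322 in the control libraries. Among carriers, Rlbp1, a retinaldehyde binding protein, had 308.2 to 345.3 against 281.5 to 310.0, and the median of the 4 tested was 0.096. Adh5, the most abundant gene of retinol oxidation and retinaldehyde reduction, had 3277 to 3696 against 3533 to 3668, and the median of the 8 tested was -0.078. Fabp5, which can also carry retinoic acid, had 3144 to 3727 against 3203 to 3379 (log2 fold change 0.096), and Dgat1, which can esterify retinol, had 1876 to 2001 against 1738 to 1970 (0.054). Aldh8a1, a further retinaldehyde dehydrogenase, had 3, 8 and 3 reads in the cKO and 4, 11 and 0 in the control libraries.

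The genes whose log2 normalized counts followed Aldh1a1 most closely over the 6 libraries were Zfp971 (Pearson r = 0.990), Esyt1 (0.981) and Fastkd1 (0.979). Their range was much narrower than that of Aldh1a1, for example 200 to 247 normalized counts for Zfp971 in the cKO and 159 to 190 in the control libraries. With 6 libraries in 2 groups, such values are a description, and the 3 genes were picked from all 16680 as the highest.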

How the data were processed

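RNA-seq of 3 Lmx1b cKO and 3 control midbrain samples was used. The deposited table, made by the authors, holds the mean signal (coverage in read counts divided by a size factor per library) over all samples and per group. Its ratio, log2 ratio, p-value and adjusted p-value columns were deposited by the authors for their own comparison and were not used. Paired-end reads had been mapped on GRCm38.p4. The submitters' processing notes name TopHat 1.0.14, Bowtie2 2.1.0, HTSeq 0.6.1p1 and DESeq 1.10.1, and the paper names DESeq2. Use of strand is not given in the sources used here. Lines naming no gene (3, with 31.8% of the mean counts) were left out.

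Whole reads per library were searched up to sums of 30000 in each group. The 26355 recovered genes hold 69.5% of the mean counts on genes. Recomputed size factors differed by at most 0.14%. Recovered counts of the 16680 genes with a mean of at least 10 were fitted with limma 3.58.1 (voom weights, genotype as the only term, R 4.3.3) and adjusted by the Benjamini-Hochberg method. The script was tested on simulated data. These had the same spread for all genes and no library that stood apart, so they do not measure how well changes are found in the libraries used here. Single genes were compared by an exact permutation test, two-sided. A gene with 3 or fewer reads in each library of a group was taken as at the floor. Intervals for low counts cover counting error only.

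The 9 genes and all lists were chosen with earlier results of these data known. The named genes are the 9 genes, the other pathway genes with an unadjusted p under 0.05 or the highest mean of their list, Aldh1a7, the other Cyp26 genes, the leading marker genes a result touches, and the 3 genes most like Aldh1a1. Stra6l, Meis1, Rarb, Nr2f2, Lrat, Bco1, Otx2 and the single mdDA, meningeal, bone and choroid plexus genes were named after their values were seen. Positions, exon lengths and overlaps are from GENCODE M21. Python 3.11.15 was used for the search (numba 0.67.0, numpy 2.4.6), for tables (pandas 2.3.3), permutation tests (scipy 1.17.1) and plots (matplotlib 3.10.9). Protein sequences were not used here.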

Additional observations from a re-analysis of the deposited data

How the results depend on the processing

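The alternatives were other filters, limma-trend with pseudocounts of 1 and 10, other size factors, marker levels as covariates and each library left out. Aldh1a1 was higher in the cKO in 16 of 16 of them (log2 fold change 0.72 to 1.11), with an unadjusted p under 0.05 in limma, which it lost only without control replicate a with the Y-linked level as a covariate (0.19), an alternative added after the data were seen. Dhrs3 kept its direction in 16 of 16 and had an unadjusted p under 0.05 in 6, as did Cyp26b1. Rdh10 ran from -0.015 to 0.13 with each library left out, reversed without control replicate c, and was also reversed, at -0.12, without control replicate a with the Y-linked covariate. The main count of retinoid genes with an unadjusted p under 0.05, 2, was 4 without a filter, where Rbp4 and Cyp26b1 joined Aldh1a1 and Dhrs3. It was 1, Aldh1a1, with a minimum mean of 50 or 100, with limma-trend at either pseudocount and with the upper quartile, where Dhrs3 stayed at -0.35 to -0.39 with an unadjusted p just above 0.05. It was 3 with each of the 3 covariates, and between 1 and 3 with each library left out. The count of 1 among other pathway genes was 2 without a filter and with the Y-linked covariate, 3 with the meningeal covariate, 0 at a minimum of 100, and 1 to 3 with each library left out. Over all genes the 466 with an unadjusted p under 0.05 (269 lower) were 971 (520 lower) without a filter and 303 (177 lower) at a minimum of 100, which test more and fewer genes, and 338 to 639 (211 to 363 lower) with each library left out. The number with an adjusted p under 0.05 was 1 with the Y-linked covariate (Cyp26b1, -1.07) and 1 with the cycling covariate (Aldh1a1, 0.88), each also the 1 such retinoid gene, and 0 to 3 with each library left out, the 3 without control replicate a. Without that library, the cycling covariate gave 4 such genes, 1 of them retinoid (Aldh1a1, 0.96), 719 genes, 1 retinoid gene and 4 other pathway genes with an unadjusted p under 0.05. The Y-linked covariate gave 1 retinoid and 2 other pathway genes there. The cause of these changes was not tested. No paired analysis was possible because the recovered libraries carry no number. The headers of the group means number the libraries N1 to N3 in both groups, the titles number the cKO samples 1 to 3 and the control samples 4 to 6, and neither number can be tied to a recovered library.

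Depth limits Aldh1a2, Aldh1a3 and Rbp4, which had at most 15 reads in any library.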

Other observations

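Low read counts of retinoid genes outside the comparison also varied between libraries. Lrat, which stores retinol as esters, had 15, 0 and 16 reads in cKO replicates a, b and c against 8, 10 and 11 reads in the control libraries. The 0 fell in cKO replicate b, the same library in which Aldh1a2 was at 0. Bco1, which cleaves carotene to retinaldehyde, had 6, 7 and 8 reads in the cKO and 0, 0 and 6 reads in the control libraries, where control replicate c lay within the cKO range. Both genes were named after their values were seen, and neither passed the filter on low values.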
